A study of Mus musculus with 20 samples.

Results

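The lipolysis enzymes and lipid droplet proteins described here are 10 genes, namely Pnpla2, Lipe, Mgll, Abhd5, G0s2, Plin1, Plin2, Plin4, Cidec and Bscl2, of 46078 in the deposited table. They were taken as the rows whose Ensembl identifier maps to these symbols, from a list drawn up with earlier results of these data known, and all 10 passed the filter on low counts that left 21464 genes for testing.

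The study asked whether adipocytes keep changes of obesity after weight loss, and measured the translated RNA of labelled adipocytes by TRAP-seq, in which tagged ribosomes are pulled down and the RNA bound to them is sequenced. All 20 mice were males of the genotype AdipoERCre x NuTRAP on the background that the labels write as C576BL6, and each library came from the epididymal adipose tissue (epiAT) of an individual mouse. AdipoERCre is a tamoxifen-inducible Cre under the adipocyte gene Adipoq, and NuTRAP is a reporter that tags ribosomes with GFP where Cre has acted. All mice, chow controls included, had received tamoxifen before the diets began, so only cells with an active Adipoq promoter at that time could be labelled. In the short arm, C mice (n = 3) were 18 weeks old and on chow diet. H mice (n = 3) were 18 weeks old after 12 weeks of high-fat diet (HFD). CC_s mice (n = 3) were 26 weeks old and on chow diet. HC mice (n = 3) were 26 weeks old after 12 weeks of HFD followed by 8 weeks of chow diet, the weight loss (WL) period. In the long arm, CC_l mice (n = 2) were 31 weeks old and on chow diet. HH mice (n = 2) were 31 weeks old after 25 weeks of HFD. CCC mice (n = 2) were 39 weeks old and on chow diet. HHC mice (n = 2) were 39 weeks old after 25 weeks of HFD followed by 8 weeks of chow diet. The labels give the arms different run names, so arm, run and age cannot be told apart. Each diet group was therefore compared with the chow group of its own age and arm, and where the effects of the arms are set against each other below, that difference also holds arm, run and age.

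Adipocytes store triglyceride in a large lipid droplet and release it as fatty acids and glycerol by lipolysis, in which ATGL (Pnpla2), hormone-sensitive lipase (Lipe) and monoglyceride lipase (Mgll) remove the fatty acids in sequence. CGI-58 (Abhd5) activates ATGL, G0S2 inhibits it, and perilipin 1 (Plin1) coats the droplet and holds CGI-58 back until the cell is stimulated. Perilipin 2 (Plin2) is a coat protein of droplets in many cell types, lipid-laden macrophages among them, and perilipin 4 (Plin4) coats droplets mainly in adipocytes. CIDEC promotes droplet fusion and growth, and seipin (Bscl2) acts where new droplets form at the endoplasmic reticulum.

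The results below turn on the pairs Plin2 with Plin1 and G0s2 with Pnpla2, whose promoters are shown here so that each pair can be read side by side. The windows run from 250 bases before to 50 bases after the annotated start (RefSeq, GRCm38.p6), 5′ to 3′ along the gene, and all 10 genes matched the table, with 15 windows in all. Capitals mark every match, on either strand, to the E-box CACGTG, the GC box GGGCGG, the TATA box TATAAA, the CRE core TGACG, the PPAR half-site AGGTCA and the PPAR direct repeat AGGTCANAGGTCA, of which the half-site is a part of the direct repeat.
Plin2, chr4:86670010-86670309, minus strand: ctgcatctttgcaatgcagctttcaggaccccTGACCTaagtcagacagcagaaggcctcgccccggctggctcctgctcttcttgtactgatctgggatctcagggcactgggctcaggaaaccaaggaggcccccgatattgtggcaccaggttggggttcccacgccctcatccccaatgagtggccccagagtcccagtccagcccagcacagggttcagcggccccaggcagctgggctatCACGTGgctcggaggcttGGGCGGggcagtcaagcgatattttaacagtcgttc
Plin1, chr7:79732727-79733026, minus strand: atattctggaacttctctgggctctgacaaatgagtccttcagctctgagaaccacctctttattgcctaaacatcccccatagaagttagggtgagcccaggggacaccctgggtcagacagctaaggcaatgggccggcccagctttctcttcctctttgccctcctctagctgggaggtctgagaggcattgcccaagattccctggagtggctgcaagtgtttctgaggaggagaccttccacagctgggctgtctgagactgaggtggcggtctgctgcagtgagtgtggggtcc
G0s2, chr1:193273139-193273438, minus strand: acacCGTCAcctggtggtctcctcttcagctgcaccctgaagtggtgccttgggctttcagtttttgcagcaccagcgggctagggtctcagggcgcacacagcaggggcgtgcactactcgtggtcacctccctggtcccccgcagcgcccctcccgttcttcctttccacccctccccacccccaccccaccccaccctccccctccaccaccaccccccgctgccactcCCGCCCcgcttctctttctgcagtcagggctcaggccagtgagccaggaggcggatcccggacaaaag
Pnpla2, chr7:141454938-141455237, plus strand: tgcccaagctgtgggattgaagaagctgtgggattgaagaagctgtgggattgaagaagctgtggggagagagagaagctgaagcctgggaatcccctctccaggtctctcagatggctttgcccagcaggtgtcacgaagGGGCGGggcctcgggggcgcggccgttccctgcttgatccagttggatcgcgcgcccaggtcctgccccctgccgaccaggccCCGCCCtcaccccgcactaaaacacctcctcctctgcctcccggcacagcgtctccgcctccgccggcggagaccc

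Plin2 held an E-box that began 4 bases before the start and ran across it, a GC box after the start and a PPAR half-site. The Plin1 window held none of the motifs searched. G0s2 held a GC box and a CRE core, and Pnpla2 held GC boxes alone. Among the 15 windows, the E-box was found in 3 (Plin2, Lipe and Mgll) and in 7.15% of all 32851 windows of the table, and the GC box in 8, against 35.7% of all windows. The CRE core was found in 3 windows (20.8% of all windows) and the PPAR half-site in 3 (16.3%), while neither the TATA box (13.6%) nor the PPAR direct repeat (0.0396%) was found in any of them. These matches describe letters in a short window and say nothing about binding.

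Across the 20 libraries the 10 genes took 0.455% to 2.12% of all counts, and depth ranged from 10710277 to 36738954 counts, so that even the lowest value of any of them, 361 counts of Abhd5 in HC replicate 3, was well above the filter. Per kilobase of annotated exon, the mean level over the 20 libraries was highest for Cidec (10.68 log2 CPM per kb), followed by G0s2 (9.97), Plin4 (8.87), Mgll (8.52), Pnpla2 (7.28), Lipe (7.13), Plin2 (6.85), Plin1 (5.74), Bscl2 (5.27) and Abhd5 (3.73). The inhibitor G0s2 was thus well above the activator Abhd5, and Plin1 was below Plin2 and Plin4, on this scale. Exon lengths come from the annotation with all transcripts joined, which understates the level of genes with long rare exons.

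The spread between mice of the same group was wide. The within-group SD of log2 CPM, pooled over the 8 groups, ran from 0.62 for Bscl2 to 1.2 for Pnpla2. For these genes it was nearly as large as the SD over all 20 libraries (0.62 and 1.22). The pooled SD was farthest below the SD over all libraries for Plin4 (0.63 against 1.01), followed by Lipe (0.76 against 0.90). For Abhd5 it was the larger (1.02 against 0.92). Several groups held a library that stood low for most of the genes. C replicates 1 and 2 were below C replicate 3 for 10 of 10 genes. HC replicate 3 was the lowest HC library for 9 of 10. CCC replicate 2 was the lower CCC library for 10 of 10, and H replicate 2 was the lowest H library for 8 of 10. C replicates 1 and 2, HC replicate 3 and CCC replicate 2 also had 11.2% to 23.0% of their counts in mitochondrially encoded genes and 2.71% to 4.36% in the nuclear-retained RNAs Malat1, Neat1, Kcnq1ot1 and Meg3. H replicate 2 did not (4.95% and 0.527%) but had the highest macrophage marker sum of its group. CC_s replicate 1, the lowest of its group for 8 of 10 genes, had 11.9% mitochondrial counts, and CC_l replicate 1 was the lower CC_l library for 8 of 10. In the other 15 libraries these shares were 1.32% to 7.35% and 0.221% to 1.38%. Their part in the results below was not tested, but each comparison was repeated without the 4 libraries over 2% nuclear-retained RNA, a choice made after seeing the data.

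**Figure D1:**
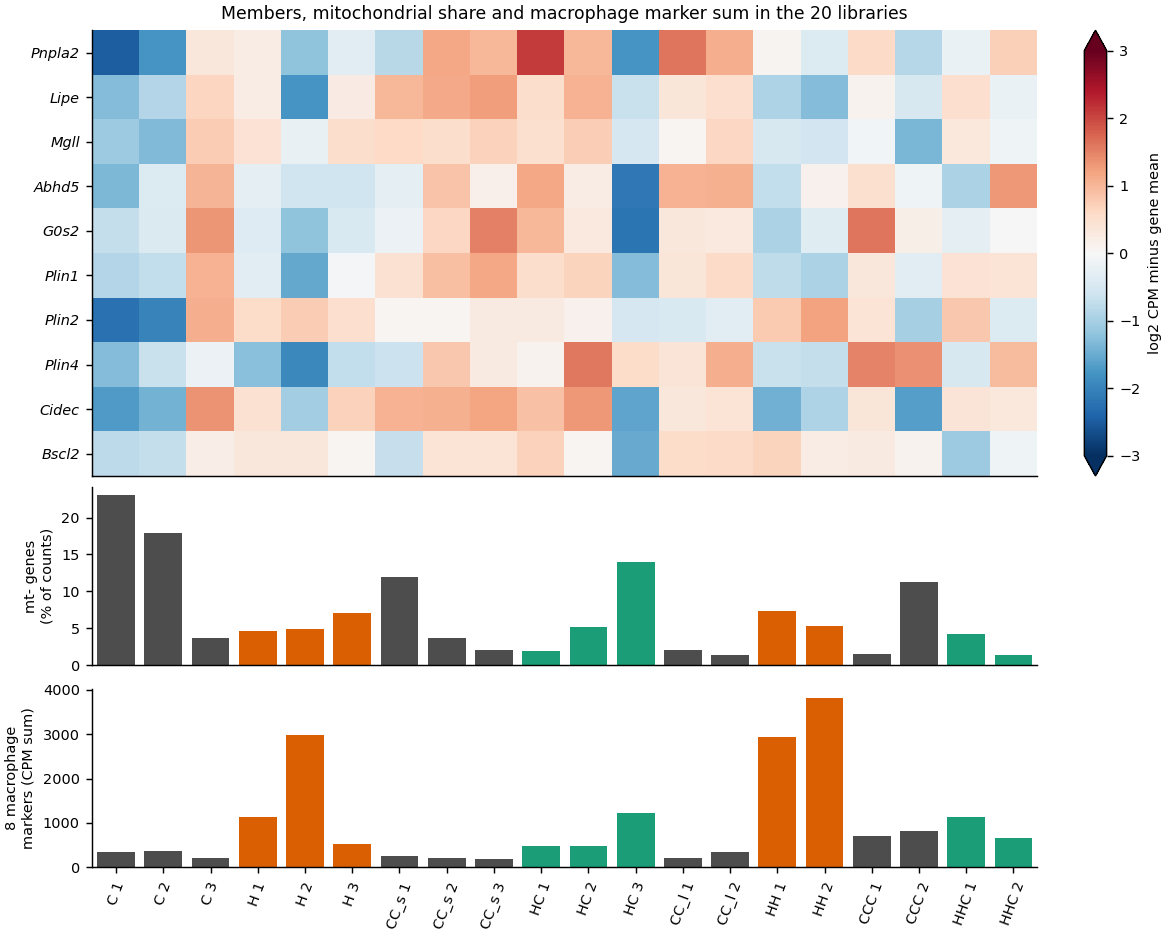
Level of each of the 10 genes (log2 CPM minus the gene's mean over the 20 libraries, colour), share of counts in mitochondrially encoded genes (percent, upper bars) and summed CPM of 8 macrophage markers (lower bars) in each library, with chow groups in grey, HFD groups in orange and WL groups in green. C replicates 1 and 2, HC replicate 3 and CCC replicate 2 are low for most genes and have 11.2% to 23.0% mitochondrial counts, and both HH libraries are high in macrophage markers with 2943 and 3828 CPM.

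A gene was called where its log2 fold change was 1 or more in size and its nominal p fell below 0.01 in edgeR's quasi-likelihood test. No member was called in any of the 4 comparisons. Of all tested genes, 3.57% were called higher and 2.92% lower in H against C. The shares were 1.57% and 0.172% in HC against CC_s, 4.92% and 1.88% in HH against CC_l, and 0.447% and 2.67% in HHC against CCC. None of the 10 reached a nominal p under 0.05 in any comparison by edgeR, and the smallest adjusted p was 0.498 in H, 0.748 in HC, 0.296 in HH and 0.646 in HHC. DESeq2 gave a p-value for 9 of the 10, since its Cook's distance filter on outlying counts left Plin2 without one. It called none of the 9, and put 3 below a nominal p of 0.05 in HH (smallest adjusted p 0.0819) and none elsewhere. With that filter switched off, a choice made after seeing the data, Plin2 was not called by DESeq2 either (adjusted p = 0.261 in HH). The medians of the members' log2 fold changes were 0.09 in H, -0.20 in HC, -1.31 in HH and 0.36 in HHC, beside -0.15, 0.27, -0.23 and -0.06 over all tested genes. The HH group is therefore the only group in which the median of the 10 lay more than 1 log2 unit from 0. Fold changes are from the fit, which weighs mean counts, and so can differ from the difference between the group means of log2 CPM where replicates are far apart. Each library is a ribosome pulldown from depot tissue, scaled to its own counts. A smaller share of adipocyte RNA in it and a lower level of a gene per adipocyte therefore cannot be told apart.

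**Figure D2:**
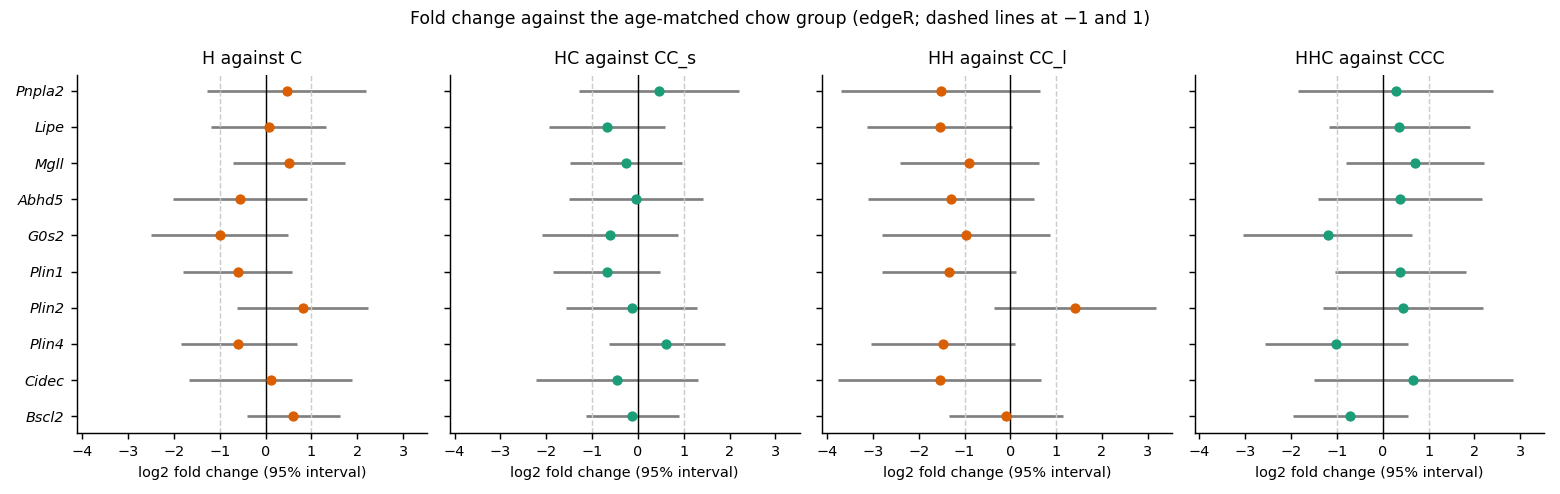
log2 fold change (points) and 95% interval (lines) of each of the 10 genes against the age-matched chow group, from edgeR, with dashed lines at -1 and 1. In HH against CC_l, 9 of the 10 points are below 0 and Plin2 is at 1.41, and all 40 intervals include 0.

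Of the lipases, Pnpla2 encodes ATGL, which removes the first fatty acid from triglyceride. It stood at 10.48 and 9.97 log2 CPM in the CC_l mice and at 8.96 and 8.46 in the HH mice, so both HH values were below both chow values. The log2 fold change was -1.52 (SE 1.03, 95% interval -3.69 to 0.65, adjusted p = 0.451). In the short arm the C mice ranged over 2.81 log2 units, at 6.39, 7.09 and 9.20, and enclosed the H mice at 9.09, 7.66 and 8.52. After WL, HC mice stood at 10.97, 9.87 and 7.10 against 8.03, 10.03 and 9.87 in CC_s, and HHC mice at 8.67 and 9.58 against 9.45 and 8.02 in CCC. Neither WL group could be set apart from its control, with log2 fold changes of 0.46 (95% interval -1.28 to 2.2) in HC and 0.29 (-1.84 to 2.41) in HHC.

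Lipe, which encodes the lipase acting mainly on diglyceride, had the smallest p of the 10 in any comparison. It stood at 8.77 and 8.38 log2 CPM in HH and at 10.05 and 10.20 in CC_l, without overlap, and the log2 fold change was -1.54 (SE 0.75, 95% interval -3.12 to 0.03, adjusted p = 0.296). In H, replicates 1 and 3 were at 9.91 and 9.92, within the range of the C mice at 8.38, 8.81 and 10.34, and replicate 2 was below it at 7.92. HC mice were at 10.21, 10.72 and 9.03 and the CC_s mice, at 10.69, 10.82 and 10.95, were close together (SD 0.13, n = 3). In HHC, at 10.20 and 9.47, the values overlapped those of CCC at 9.79 and 9.21. Lipe shares 15.6% of its exon bases with the opposite-strand gene 4732471J01Rik, and the strand setting of the counting is not stated.

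Mgll, the lipase of the last step, stood at 10.39 and 10.29 in HH and at 10.93 and 11.49 in CC_l, and its log2 fold change of -0.90 (SE 0.72, 95% interval -2.41 to 0.62, adjusted p = 0.533) was the smallest among the 3 lipases. In the other 3 comparisons its groups overlapped and the log2 fold changes were 0.51 in H (95% interval -0.72 to 1.74), -0.27 in HC (-1.49 to 0.96) and 0.71 in HHC (-0.80 to 2.21).

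**Figure D3:**
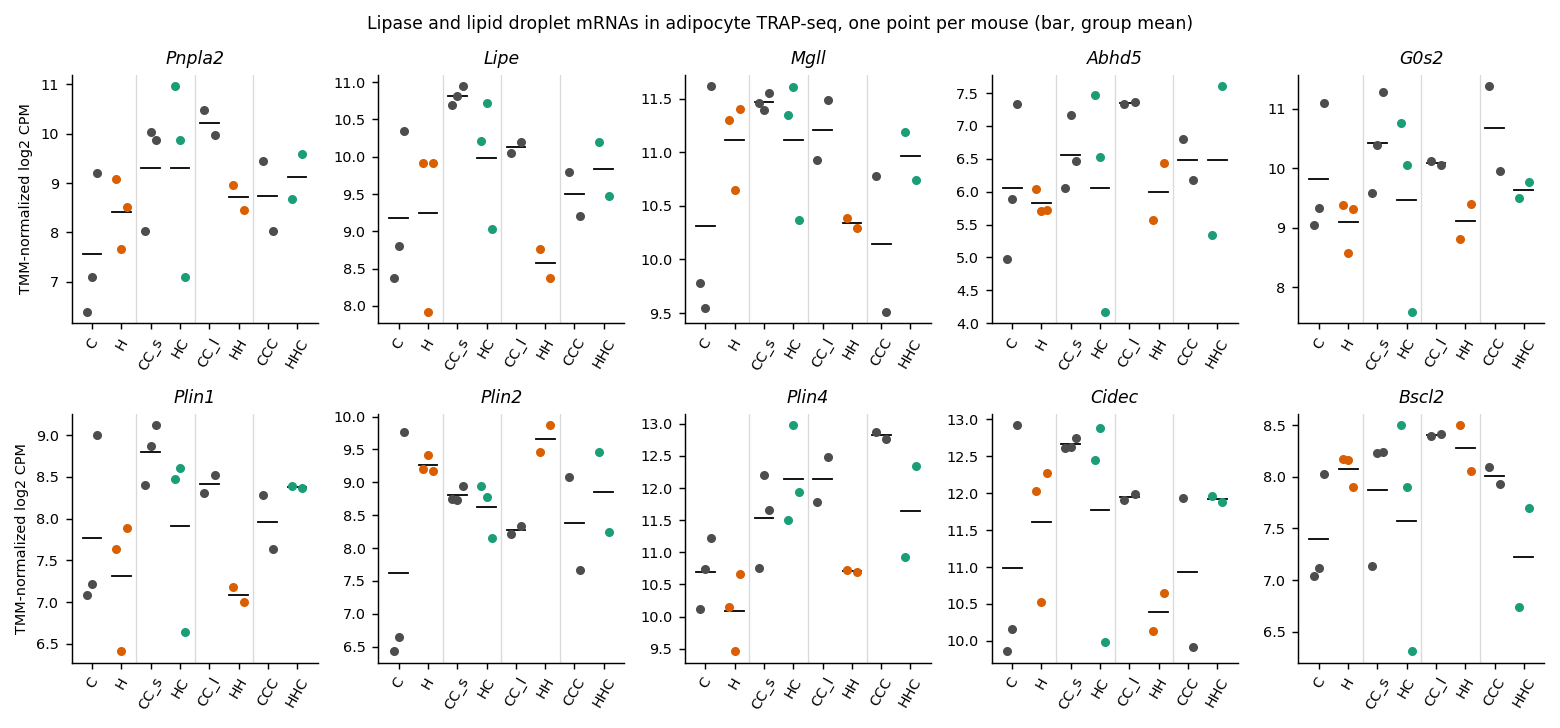
TMM-normalized log2 CPM of the 10 genes in each mouse (points) and the group mean (bars), by group, with a grey line between comparisons. In HH, 8 genes have both mice below both CC_l mice, Plin2 has both above, and Bscl2 overlaps.

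Neither regulator of ATGL was called in either arm. Abhd5, the co-activator, was at 5.57 and 6.43 in HH against 7.34 and 7.37 in CC_l (log2 fold change -1.29, SE 0.86, 95% interval -3.11 to 0.52, adjusted p = 0.442). In H it was at 6.04, 5.71 and 5.72, close together, while the C mice were spread from 4.97 through 5.89 to 7.33. After WL the HHC mice were the farthest apart of all groups of 2 for this gene, at 5.34 and 7.61, on both sides of CCC at 6.80 and 6.17. Abhd5 shares 16% of its exon bases with the opposite-strand gene A730085K08Rik.

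G0s2, which encodes the inhibitor of ATGL, had a negative log2 fold change in all 4 comparisons, none of them called, and 1 library decided much of the size in 3 of them. It was at 9.38, 8.57 and 9.32 in H against 9.05, 9.34 and 11.09 in C (log2 fold change -1.0, SE 0.71, 95% interval -2.49 to 0.50, adjusted p = 0.498). HC mice stood at 10.76, 10.06 and 7.59 against 9.59, 10.38 and 11.28 in CC_s (-0.62, 95% interval -2.10 to 0.87). These 2 pairs of groups overlapped, whereas those of the long arm did not. HH was at 8.82 and 9.40 against 10.12 and 10.06 in CC_l (-0.96, 95% interval -2.79 to 0.87), and HHC at 9.50 and 9.76 against 11.38 and 9.95 in CCC (-1.20, SE 0.87, 95% interval -3.04 to 0.64, adjusted p = 0.646). Leaving out C replicate 3 gave -0.07 in H. Leaving out CC_s replicate 3 gave -0.08 in HC, and leaving out CCC replicate 1 gave -0.32 in HHC.

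Of the droplet coats, Plin1, the perilipin of the mature adipocyte droplet, was at 7.18 and 7.0 in HH and at 8.31 and 8.52 in CC_l (log2 fold change -1.33, SE 0.69, 95% interval -2.79 to 0.13, adjusted p = 0.33). After the long diet and WL the order was the other way, with HHC at 8.39 and 8.37 just above CCC at 8.28 and 7.64 (0.38, 95% interval -1.05 to 1.82). The difference between these effects was 1.72 log2 units (SE 0.97, 95% interval -0.33 to 3.76) and did not pass an adjusted p of 0.05 (adjusted p = 0.409). In the short arm Plin1 was at 7.64, 6.41 and 7.89 in H, where C was at 7.08, 7.22 and 9.0, and at 8.48, 8.61 and 6.64 in HC, where CC_s was at 8.40, 8.87 and 9.12.

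Plin2 was the only member with a higher value in both HFD mice of the long arm than in both controls. It stood at 9.46 and 9.87 log2 CPM in HH and at 8.21 and 8.33 in CC_l (log2 fold change 1.41, SE 0.84, 95% interval -0.36 to 3.18, adjusted p = 0.39). In CPM the means were 821 ± 167 (SD, n = 2) and 309 ± 17.5 (SD, n = 2). The H mice were almost equal, at 9.21, 9.42 and 9.17. They were all above C replicates 1 and 2 at 6.43 and 6.65 but below C replicate 3 at 9.76. The log2 fold change was 0.81 (SE 0.68, 95% interval -0.62 to 2.24, adjusted p = 0.574). Without C replicate 3 it was 2.73 and was called. Without C replicates 1 and 2, HC replicate 3 and CCC replicate 2 it was -0.38, with 1 C mouse left, so the direction in H depends on which C libraries are used. In the WL groups Plin2 overlapped the controls. It was at 8.95, 8.78 and 8.16 in HC against 8.74, 8.73 and 8.95 in CC_s, and at 9.46 and 8.24 in HHC against 9.08 and 7.67 in CCC. The log2 fold changes were -0.14 (95% interval -1.56 to 1.28) and 0.44 (-1.30 to 2.18).

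Plin4 was lower in both HH mice, at 10.73 and 10.69, than in both CC_l mice, at 11.78 and 12.49 (log2 fold change -1.47, SE 0.75, 95% interval -3.05 to 0.11, adjusted p = 0.32). It was also lower in both HHC mice, at 10.93 and 12.35, than in both CCC mice, at 12.88 and 12.76 (-1.01, SE 0.74, 95% interval -2.57 to 0.55, adjusted p = 0.649), a value that was -0.48 without HHC replicate 1 and -1.89 without HHC replicate 2. CCC replicate 2 and HC replicate 3, low for most of the other genes, stood high for Plin4 at 12.76 and 11.94. In the short arm the groups overlapped, with log2 fold changes of -0.59 in H (95% interval -1.85 to 0.68) and 0.62 in HC (-0.64 to 1.89).

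Of the genes for droplet growth and formation, Cidec, the most abundant per kilobase, was at 10.13 and 10.65 in HH and at 11.91 and 11.99 in CC_l (log2 fold change -1.54, SE 1.05, 95% interval -3.76 to 0.67, adjusted p = 0.452). In C it ranged from 9.86 and 10.16 to 12.92, which enclosed the H values of 12.03, 10.53 and 12.27. HC replicate 3, at 9.98, was far below the other HC mice at 12.45 and 12.88, and CCC replicate 2, at 9.92, below the other CCC mouse at 11.94. Without those libraries and C replicates 1 and 2, the log2 fold changes of Cidec were -0.04 in HC and 0.06 in HHC. Bscl2 was the least variable of the 10 and the only one whose HH and CC_l values overlapped, at 8.50 and 8.06 against 8.39 and 8.41 (log2 fold change -0.10, 95% interval -1.34 to 1.14). In HHC it was at 6.74 and 7.70, below CCC at 8.09 and 7.93 (-0.71, 95% interval -1.96 to 0.54), with -0.32 without HHC replicate 1 and -1.27 without HHC replicate 2. It shares 6.75% of its exon bases with Gng3 on the opposite strand and 4.05% with AC129217.1 on the same strand.

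Counted over the members, the groups did not overlap for 9 of 10 genes in HH against CC_l, 8 of them lower and 1 higher, where 28.9% of all tested genes were lower and 26.3% higher without overlap. In HHC against CCC, 3 genes were lower without overlap (G0s2, Plin4 and Bscl2; 20.3% of all tested genes) and 1 was higher (Plin1; 8.49%). No member was free of overlap in H against C (13.4% of all tested genes higher, 11.8% lower) or in HC against CC_s (8.01% and 5.82%). With 2 mice in each group, groups without overlap are common among all genes, and p-values of the fit borrow the spread from all 20 libraries.

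Because that spread is shared, the HH comparison was sensitive to libraries outside it. Without the 4 libraries over 2% nuclear-retained RNA, none of which is in HH or CC_l, the log2 fold changes of the long HFD comparison were nearly the same, but their SEs were smaller and 3 of 10 members were called. Those were Plin1 (log2 fold change -1.35, SE 0.40, adjusted p = 0.0621) and Cidec (-1.57, SE 0.51, adjusted p = 0.0833), both lower, and Plin2 (1.38, SE 0.38, adjusted p = 0.0456), which was higher, in edgeR. Of all genes tested in that fit, 6.08% were called higher and 4.76% lower. With only HH and CC_l in the fit, Lipe (-1.47), Plin1 (-1.26) and Plin2 (1.48) were called, beside 8.19% of all genes higher and 2.53% lower. In H against C, the fit without the 4 libraries called members too. G0s2 (-1.85, SE 0.52, adjusted p = 0.0728) and Plin1 (-1.45, SE 0.43, adjusted p = 0.0829) were called lower there, where 4.22% of all genes were called higher and 4.29% lower. That comparison rests on a single C mouse, assumed to vary like the other groups.

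The difference between the effects of 2 comparisons was tested across all genes, and no member had an adjusted p under 0.05. For HHC against HH, where 0.815% of all genes were called, the smallest adjusted p of a member was 0.394, for Lipe (difference 1.90, SE 1.04, 95% interval -0.30 to 4.10). Among the other 3 differences, HC against H, HH against H and HHC against HC, 0% of all genes were called, and the smallest adjusted p of a member was 0.63, 0.855 and 0.497. None of the 10 was below a nominal p of 0.05 in any of these tests, and a difference between the effects on HFD and after WL was not shown for any of them.

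Ratios between 2 genes in the same library do not depend on library scaling. The log2 ratio of Plin2 to Plin1 was -0.65, -0.57 and 0.76 in the C mice and 1.57, 3.01 and 1.28 in the H mice, a difference of 2.10 with no overlap (exact permutation test, two-sided, p = 0.1, the smallest that 3 against 3 mice allow). In the long arm it was -0.10 and -0.19 in CC_l and 2.28 and 2.88 in HH, a difference of 2.72 (exact permutation test, p = 0.333, the smallest that 2 against 2 allow). The direction was the same in both HFD comparisons and, without C replicates 1 and 2, the H difference was 1.19. After WL the ratio was 0.47, 0.17 and 1.53 in HC and 0.34, -0.14 and -0.17 in CC_s (difference 0.71, exact permutation p = 0.2), with overlap. It was 1.08 and -0.13 in HHC and 0.80 and 0.03 in CCC, a difference of 0.06 that turned negative without CCC replicate 2 (-0.32) or HHC replicate 1 (-0.54).

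The Plin2 to Plin1 ratio is given here beside the summed macrophage markers of the same mouse (8 markers, all of them with counts in every group). H replicate 2, with the ratio of 3.01, had 2987 CPM of macrophage markers, against 1139 and 525 CPM in the other H mice at 1.57 and 1.28. HC replicate 3, at 1.53, had 1222 CPM against 481 and 482 CPM. HH replicate 2, at 2.88, had 3828 CPM against 2943 CPM, and HHC replicate 1, at 1.08, had 1135 CPM against 663 CPM. In each of these 4 groups the mouse with the highest ratio was thus also the mouse with the highest macrophage marker sum. Among the chow groups this held in CC_s (0.34 with 247 CPM in replicate 1) but not in the other 3. C replicate 3, at 0.76, had the lowest sum of its group (203 CPM against 355 and 360 CPM), CC_l replicate 1, at -0.10, had 202 CPM against 347 CPM, and CCC replicate 1, at 0.80, had 696 CPM against 826 CPM. With only 2 or 3 mice in a group, the highest ratio and the highest sum often fall on the same mouse by chance. The ratio also rises where Plin1 is low. HC replicate 3 was lowest of its group in Plin2 (8.16 log2 CPM against 8.95 and 8.78). Its Plin1 was also lowest (6.64 against 8.48 and 8.61). H replicate 2 was highest in Plin2 (9.42 against 9.21 and 9.17) and lowest in Plin1 (6.41 against 7.64 and 7.89). HHC replicate 1 was higher in Plin2 (9.46 against 8.24), with Plin1 at 8.39 against 8.37. HH replicate 2 was higher in Plin2 (9.87 against 9.46) and lower in Plin1. The part of macrophage RNA in the Plin2 values was not tested.

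The log2 ratio of the inhibitor to the lipase, G0s2 to Pnpla2, was 2.66, 2.25 and 1.89 in C and 0.29, 0.92 and 0.80 in H, a difference of -1.60 with no overlap (exact permutation test, two-sided, p = 0.1, the smallest possible). In C the SD of this ratio was 0.39 (n = 3), beside 1.46 for Pnpla2 alone. In HC it was -0.21, 0.19 and 0.49, and in CC_s 1.56, 0.35 and 1.42 (difference -0.95, exact permutation p = 0.2), which overlapped through CC_s replicate 2. In HHC it was 0.83 and 0.17 against 1.93 in both CCC mice (difference -1.43, exact permutation p = 0.333, the smallest possible), with no overlap. The HH comparison went the other way, at -0.14 and 0.94 against -0.36 and 0.09 in CC_l, a difference of 0.53 with overlap (exact permutation p = 0.667). The HH mean (0.40) lay among those of H (0.67), HC (0.16) and HHC (0.50). The CC_l mean (-0.13) was below those of the other chow groups, C (2.27), CC_s (1.11) and CCC (1.93). The ratio of Abhd5 to Plin1 and that of Pnpla2 to Lipe overlapped between groups in all 4 comparisons. Over the 16 ratio tests the lowest adjusted p was 0.64, and groups of this size could not reach an adjusted p under 0.05.

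**Figure D4:**
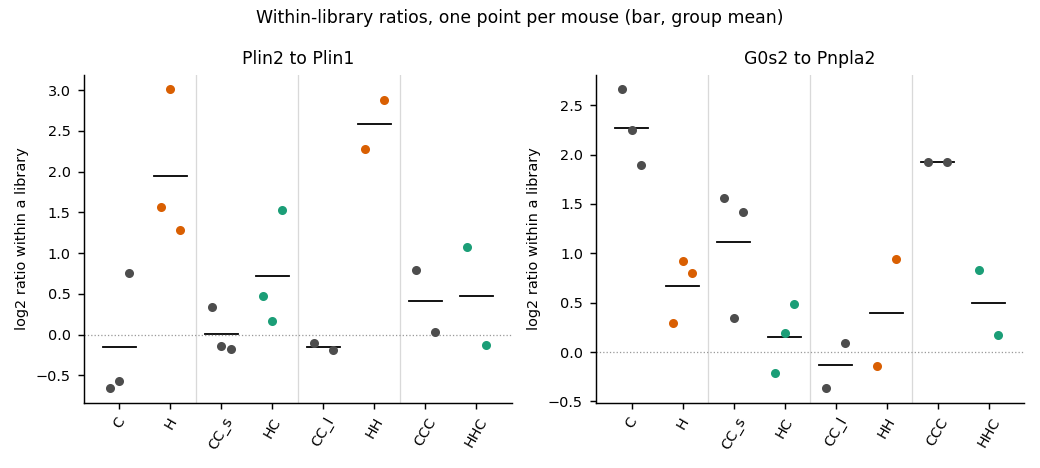
log2 ratio of Plin2 to Plin1 and of G0s2 to Pnpla2 in each mouse (points) with the group mean (bars). Plin2 to Plin1 is above 1 in all 5 H and HH mice and below 1 in all C and CC_l mice, and G0s2 to Pnpla2 is at 1.89 or more in the C and CCC mice and below 1 in the H and HHC mice.

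Markers of the cell types in the depot differed in HH, where the median of the members was lowest, and also in H, where it was near 0. Of the 8 adipocyte markers (Adipoq, Lep, Cfd, Retn, Pck1, Acvr1c, Slc2a4 and Pparg), 1 was called lower and none higher in HH, and their sum was 8682 and 12503 CPM in HH against 26545 and 36305 CPM in CC_l. In H, 2 were called lower and 1 higher, and the sum was 7349 to 9994 CPM in H against 15031 to 28399 CPM in C. Cfd, at 940, 706 and 709 CPM in H against 12088, 9652 and 10132 CPM in C, made up much of that gap. Lep went the other way, at 5066, 3803 and 4370 CPM in H against 447, 667 and 2152 CPM in C. All 8 adipocyte markers had counts in every group. After WL their sums overlapped those of the controls, at 3536 to 25453 CPM in HC and 11900 to 23417 CPM in CC_s, and at 8116 and 28012 CPM in HHC and 23020 and 27286 CPM in CCC. Of the 8 macrophage markers (Adgre1, Cd68, Csf1r, Mrc1, Cd163, Lyz2, Ptprc and Tyrobp), 7 were called higher in HH (2943 and 3828 CPM against 202 and 347 CPM). Of the same list, 5 were called higher in H (525 to 2987 CPM against 203 to 360 CPM) and 5 in HC (481 to 1222 CPM against 187 to 247 CPM). In HHC, 1 was called lower (663 and 1135 CPM against 696 and 826 CPM). The study names Lyz2 and Tyrobp, both of this list, among genes with promoters still active in its labelled adipocytes after WL. Of 5 endothelial markers, 5 were called higher in HH and 3 in H, while 1 was called lower in HHC (summed level 69.4 and 88.4 CPM against 217 and 450 CPM in CCC). Of 5 adipocyte progenitor markers, 3 were called higher in HH, 1 in H and 1 in HC. Of 6 markers of lipid-associated macrophages (Trem2, Gpnmb, Spp1, Itgax, Cd9 and Lpl), 4 were called higher in H, 3 in HC and 2 in HH. Their median log2 fold change was 2.79 in H, 3.36 in HC and 2.90 in HH. Their sum, which follows the most abundant of them, overlapped the controls in H (5378 to 8117 CPM against 4881 to 11755 CPM) and in HC (4071 to 8667 CPM against 7402 to 8257 CPM). In HH it was above them, at 8203 and 10879 CPM against 4301 and 6648 CPM. The 4 remaining lists showed few calls. Of 5 mesothelial markers 2 were called lower in H and 1 in HHC, and of 5 epididymal epithelium markers 1 was called higher in H. Of 5 spermatid markers 3 were called higher in HC, and of 5 lymphocyte markers none was called (all by edgeR). The spermatid sum in HC was 434 CPM in replicate 3 against 3.06 and 7.23 CPM in replicates 1 and 2. C replicate 1 held 1819 CPM of the 5 epididymal epithelium markers against 12 and 25.8 CPM in C replicates 2 and 3. CC_l replicate 1, a control of HH, held 3114 CPM of the 5 spermatid markers against 9.04 CPM in CC_l replicate 2. Without it the log2 fold changes in HH were -1.42 for Plin1, 1.36 for Plin2, -1.77 for Plin4 and -1.61 for Lipe, and the difference in the Plin2 to Plin1 ratio was 2.77. The part of these cell types in the member values was not tested.

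Each member was also compared with all other genes of at least 5 mean log2 CPM, 4844 genes in all, for the gene whose centred profile over the 20 libraries lay closest by root mean square (RMS) difference in log2 CPM. Mgll lay 0.20 from Ube2l3, Plin1 0.23 from Dnaja3, and Cidec 0.27 from Ppp1r14b. Bscl2 lay 0.27 from Cgrrf1, Lipe 0.28 from Akt2, Abhd5 0.30 from Asns, G0s2 0.34 from Pdhb and Pnpla2 0.35 from Cebpa, a transcription factor of adipocytes. Plin2 lay farther from its nearest gene, Hspa8 (0.42), and Plin4 lay farthest, from Hdgfl2 (0.64), whose exons overlap 0.294% of those of Plin4 on the opposite strand. Among the members themselves, Lipe and Plin1 were nearest to each other (0.34), and Plin2 lay 0.73 from its nearest member, Mgll, and Plin4 0.87 from Plin1. All these profiles share the 20 libraries and their depth.

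A wider list of 23 lipid droplet genes, chosen with earlier results of these data known, held 21 tested genes. Cideb and Hsd17b13 had at most 10 counts in any library. In H against C, 1 was called higher and 3 lower, beside 3.57% and 2.92% of all tested genes. In HC against CC_s none was (1 had a nominal p under 0.05), beside 1.57% and 0.172%. In HH, 1 was called higher (4.92% of all tested genes), and in HHC 1 higher (0.447%) and 1 lower (2.67%). The median log2 fold change of the 21 was 0.09, -0.04, -0.04 and 0.12 in these comparisons, so the list as a whole did not share the low median of the members in HH. DESeq2 called 1 gene of the list in HC against CC_s.

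The genes called lower in H were 2 carboxylesterases and Pnpla3. Ces1f, a carboxylesterase, was at 6.94, 6.54 and 8.04 log2 CPM in C and at 3.91, 3.96 and 4.30 in H, and it fell by 3.26 on the log2 scale (SE 0.48, edgeR adjusted p = 0.00363). Ces1d, which encodes a carboxylesterase that hydrolyses triglyceride, was at 9.60, 9.38 and 10.20 in C and at 7.50, 7.38 and 8.05 in H and fell by 2.09 (SE 0.51, edgeR adjusted p = 0.0422). Both groups were fully apart, and without C replicates 1 and 2, HC replicate 3 and CCC replicate 2 the log2 fold changes were -3.87 and -2.41. After WL in the same arm, Ces1d was at 9.21, 8.79 and 7.80 in HC against 9.94, 10.26 and 9.55 in CC_s. These groups did not overlap, as for 5.82% of all tested genes that were lower. The log2 fold change of -1.23 was not called (SE 0.50, 95% interval -2.28 to -0.18, edgeR adjusted p = 0.544). Ces1f overlapped there (-0.45, 95% interval -1.39 to 0.49). In HH the same genes were at 5.95 and 6.22 against 6.40 and 5.86 (Ces1f, log2 fold change -0.07) and at 9.28 and 8.79 against 8.74 and 9.44 (Ces1d, -0.07). The difference between the effects in HH and H, which also crosses arm, run and age, was 3.19 for Ces1f (SE 0.72, edgeR adjusted p = 0.848), so it did not pass the correction. Ces1d and Ces1f have close relatives in the same gene cluster, and how the counting treated reads that fit several of them is not given in the sources used here.

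Pnpla3, a relative of Pnpla2, was the only gene of the list called lower both in an HFD group and in a WL group. These were H and HHC, which belong to different arms. It was not called in HC (-0.43, 95% interval -1.81 to 0.95) or in HH (-1.23, 95% interval -2.94 to 0.49). Neither arm thus called Pnpla3 both on HFD and after WL. It was at 10.16, 10.54 and 8.30 in C and at 7.82, 6.87 and 8.06 in H (log2 fold change -2.28, SE 0.68, edgeR adjusted p = 0.0931). This call depended on C replicates 1 and 2, since the value was -0.53 in the fit without the 4 libraries. It was also lost without C replicate 2 (-1.86), H replicate 1 (-2.36) or H replicate 2 (-2.0), and with the replicate number as a block (-2.14). In HHC it was at 5.84 and 5.72, the lowest values of any group, against 8.42 and 11.01 in CCC (-4.45, SE 0.92, edgeR adjusted p = 0.161), and -2.65 without CCC replicate 2. Aqp7, which encodes the glycerol channel of adipocytes, was called higher in both HFD groups. It was at 7.39, 7.30 and 7.18 in H against 4.89, 5.49 and 6.63 in C (1.44, SE 0.47, edgeR adjusted p = 0.123). In HH it was at 8.13 and 6.80 against 6.08 and 5.76 in CC_l (1.68, SE 0.58, edgeR adjusted p = 0.144). In H it was 0.78 without the 4 libraries and no longer called. The call of Aqp7 in H was lost without any 1 of C replicates 1 and 2 or the 3 H mice (1.19 to 1.49), and that in HH without either CC_l mouse (1.86 and 1.56) or without HH replicate 1 (0.89). Fitted to the compared pair of groups alone, Aqp7 was called in neither (1.37 in H and 1.74 in HH), and in HH it was not called with the replicate block (1.7), RLE normalization (1.64) or halved counts (1.62). Cidea, a relative of Cidec that is abundant in brown and beige adipocytes, was at 6.51 and 5.13 in HHC against 2.84 and 1.26 in CCC (3.75, SE 0.96, edgeR adjusted p = 0.202). The other 18 libraries reached at most 4.33. The counts of Cidea there were 1084 and 648, against 118 and 42 in CCC, and the call was lost without CCC replicate 2 (3.15) or HHC replicate 1 (2.89).

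**Figure D5:**
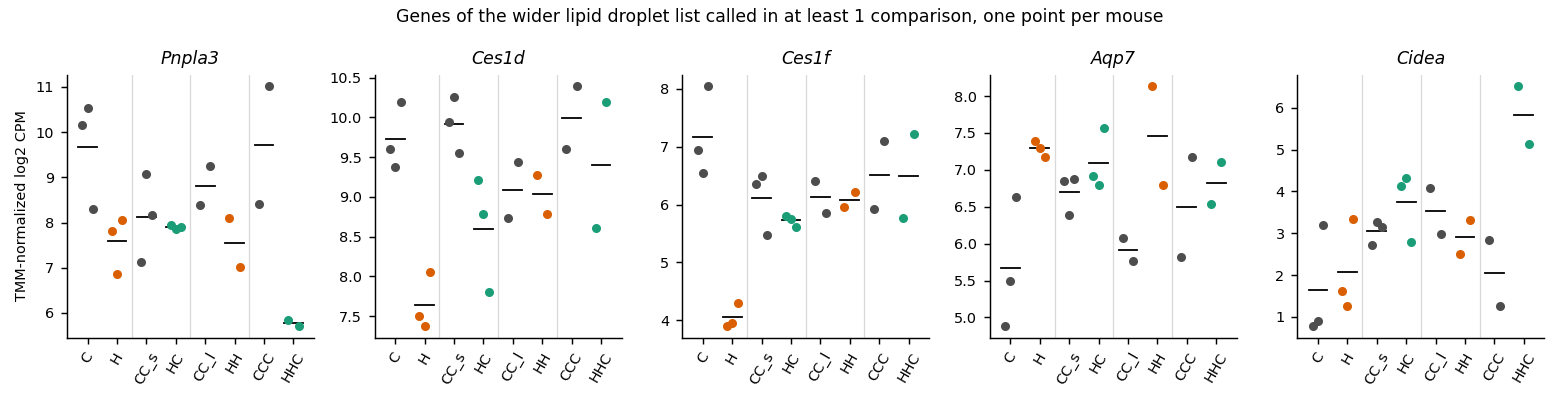
TMM-normalized log2 CPM of the 5 genes of the wider lipid droplet list that were called in at least 1 comparison, in each mouse (points) with the group mean (bars). Ces1d and Ces1f are lower in all 3 H mice than in the C mice, Pnpla3 is lowest in HHC at 5.84 and 5.72, and Cidea is highest in HHC at 6.51 and 5.13.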

How the data were processed

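TRAP-seq libraries of 20 individual mice in 8 groups were analysed. The authors checked the reads with FastQC 0.11.9, trimmed them with Trim Galore 0.6.6, aligned them to mm10 with HISAT2 2.2.1, counted them per gene with featureCounts of Subread 2.0.1 and deposited raw counts, whole numbers without normalization, in 1 table of 46078 genes. The annotation, the strand setting and the treatment of read pairs were not given in the sources used here; 74.4% to 89.2% of the nonzero counts of a library were even, so halved counts were tried as an alternative. Symbols, positions and exon lengths came from GENCODE vM21 (45229 identifiers matched, 98.2%).

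From the deposited counts, edgeR 4.0.16 (R 4.3.3) gave log2 CPM with a prior count of 2 and fold changes, after filterByExpr, TMM normalization and the quasi-likelihood test on all 20 libraries in 8 groups. Calls needed a nominal p below 0.01 with a log2 fold change of 1 or more in size, and adjusted p-values are Benjamini-Hochberg values over 21464 genes. Differences between effects were called at an adjusted p under 0.05. The SE is the absolute log2 fold change over the square root of F. Ratios within a library were compared with exact permutation tests over mice. The procedure was tested on simulated data. No 2 libraries of a group agreed within sampling noise.

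Alternatives were edgeR's likelihood ratio test, DESeq2 1.42.0, RLE factors, an unfiltered table, fits to the compared groups alone, the replicate number as a block, halved counts, other thresholds, a prior count of 0.5 and leaving out each mouse; leaving out 4 libraries and switching off DESeq2's Cook's distance filter were chosen after seeing the data. All 10 members are described, and of the wider list the genes called in any comparison. The members and lists were chosen with earlier results of these data known. Motifs were searched in RefSeq promoter windows.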

Additional observations from a re-analysis of the deposited data

How the results depend on the processing

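The members called were 0 in each comparison under the likelihood ratio test, RLE normalization, halved counts, an unfiltered table, DESeq2 (9 members with a p-value, Plin2 without one, and 0 also with all 10 once its Cook's distance filter was off), an adjusted p threshold and the replicate block, and the tests of different effects called none under any alternative run. Otherwise 3 members were called in HH when HH and CC_l alone were fitted, and without the 4 libraries over 2% nuclear-retained RNA 2 were called in H and 3 in HH. Leaving out 1 mouse gave 0 to 1 in H (Plin2, without C replicate 3).

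The called genes of the wider list were 0 in HH under RLE normalization, the replicate block, halved counts, only the compared groups and the adjusted p threshold, which left 2 in H and 0 in HHC. They were 7 in H with no filter on low counts and 1 in HC with DESeq2 (1 also without its Cook's distance filter). Without the 4 libraries 1 was called in HC, beside 0.815% of all genes higher and 0.232% lower. Shares over all genes were not worked out for the unfiltered table, DESeq2 or the fits without 1 mouse. Leaving out 1 mouse gave 2 to 5 in H, 0 to 1 in HC, 0 to 1 in HH and 1 to 3 in HHC. The replicate block changed no call of a member, and of the wider list it lost Pnpla3 in H (-2.14) and Aqp7 in HH (1.7).

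No clear pairing of mice by replicate number was seen. The deviations from the group means of same-numbered mice in the compared groups correlated at -0.277 to 0.192, with 2 of 10 pairs over 0.1. In the long arm, with 2 mice per group, both pairs of a comparison must give the same value. The pairs there are therefore not independent, and groups this small can show little about pairing.

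Signs turned as follows, none of them of a called value. Abhd5 in HC was 0.01 with no filter on low counts. Without the 4 libraries, the log2 fold changes in H were -0.56 (Pnpla2), -0.73 (Lipe), -0.36 (Mgll), -0.38 (Plin2) and -1.02 (Cidec), those in HC 0.39 (Abhd5), 0.00 (Plin2) and 0.23 (Bscl2), those in HHC -0.18 (Pnpla2) and -0.02 (Plin2), and the HHC differences in ratio -0.32 (Plin2 to Plin1) and -0.38 (Pnpla2 to Lipe). With 1 mouse left out, the ranges were, in H, -0.88 to 0.33 (Abhd5), -0.30 to 1.77 (Cidec), -0.20 to 0.89 (Lipe) and -0.90 to 0.29 (Plin1). In HC they were -0.85 to 0.44 (Abhd5), -0.64 to 0.28 (Bscl2), -0.98 to 0.01 (Cidec), -0.53 to 0.01 (Mgll), -0.30 to 0.05 (Plin2) and -0.48 to 0.97 (Pnpla2). In HH, Bscl2 ranged from -0.32 to 0.13. In HHC they were -1.18 to 1.09 (Abhd5), -0.02 to 2.00 (Cidec), -0.06 to 0.67 (Lipe), -0.30 to 1.31 (Plin2) and -0.26 to 1.17 (Pnpla2). For ratios they were, for Abhd5 to Plin1, -0.19 to 0.55 in H, -0.04 to 0.69 in HC, -0.55 to 0.50 in HH and -1.57 to 0.72 in HHC, for G0s2 to Pnpla2 0.00 to 1.07 in HH, for Plin2 to Plin1 -0.54 to 0.66 in HHC, and for Pnpla2 to Lipe -0.30 to 0.37 in HH and -0.77 to 0.87 in HHC. The cause was not tested. In HH the other 9 members kept their sign under all alternatives run. The members' counts were 361 or more in every library.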
